A study of Caenorhabditis elegans with 4 samples.

Results

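The peaks described here are the LET-418 binding sites on chromosome IV of Caenorhabditis elegans that lie outside the piRNA clusters. They were chosen by position on the WormBase WS220 assembly: a peak of the series-wide list was taken when its midpoint lay on IV and in neither of the regions from 4.5 to 7 Mb and from 13.5 to 17.2 Mb, which stand for the clusters. There were 1578 of them, out of 2082 peaks on IV and 13690 in the whole list. They fell into the left arm (IV 1 to 3895999, 817 peaks) and the remaining stretches (761 peaks). The latter were a short stretch between the arm and the first cluster (3896000 to 4499999, 99 peaks), a long stretch between the clusters (7000001 to 13499999, 640 peaks) and a right tip (17200001 to 17493793, 22 peaks).

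LET-418 was mapped by chromatin immunoprecipitation and sequencing (ChIP-seq) in whole L3 larvae of the wild-type strain N2, a mixed population of males and hermaphrodites grown at 20 °C. There were 2 ChIP samples, made with an affinity-purified rabbit polyclonal antibody, and 2 input samples. Each ChIP replicate has its own peak list, with 1887 peaks in replicate 1 and 19594 in replicate 2, and the series-wide list carries no replicate in its peak names. None of the lists gives read counts. The depth is therefore unknown, and more peaks in a list may only mean more reads. Whole larvae were used, so a peak averages over all cell types, and nothing in the labels says that the replicates came from separate cultures.

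LET-418 is a worm homologue of Mi-2/CHD4, an ATPase that uses the energy of ATP to move nucleosomes. It works in the NuRD complex, together with histone deacetylases, and in the MEC complex, and it is known for keeping germline and other developmental genes silent in somatic cells. The autosomes of C. elegans have gene-dense centres with little recombination and arms with more recombination, more repeats and more of the histone mark H3K9 methylation. Chromosome IV also carries most of the genes for piRNAs, small RNAs that guide the silencing of transposons in the germline: 14714 of 15363 piRNA genes, 95.8%, are on IV in the RefSeq annotation of WBcel235. That annotation is on another assembly than the peaks, so its coordinates were not used and the peaks are given without gene names.

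LET-418 peaks were denser on the left arm than on the remaining stretches in all 3 lists. On the left arm there were 209.7 series-wide peaks per Mb (95% exact Poisson interval 196 to 225) and 103 per Mb on the remaining stretches (95.7 to 110.4), a ratio of 2.04 (exact binomial interval 1.84 to 2.25). Replicate 1 had 160 peaks on the left arm, or 41.1 per Mb, and 62 on the remaining stretches, or 8.38 per Mb, a ratio of 4.90 (3.63 to 6.68). Replicate 2 had 1059 peaks on the left arm, or 272 per Mb, and 1118 on the remaining stretches, or 151 per Mb, a ratio of 1.80 (1.65 to 1.96). Both replicates thus had the same direction, with a larger ratio in replicate 1. Neighbouring peaks can be called together, so these and all other intervals over peaks cover counting error only and are too narrow. With 2 ChIP replicates an exact sign or permutation test over samples cannot reach 0.05, so intervals are given without p-values.

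The replicates were also compared with lists of the same length. The 1887 highest-scoring replicate 2 peaks included 97 on the left arm and 101 on the remaining stretches, a density ratio of 1.82 (1.37 to 2.43). The left arm held 49.0% of these 198 peaks and 72.1% of the 222 replicate 1 peaks, an odds ratio of 2.68 (exact interval 1.76 to 4.11). Of the 222 replicate 1 peaks, 86 overlapped a peak of the shortened replicate 2 list, so the lists are not separate sets. A list cut by score is not a list from fewer reads. How much of the difference between the replicates comes from list length or depth was not tested.

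The short stretch next to the arm resembled the arm more than the long stretch. It had 164 series-wide peaks per Mb (133 to 199.6), against 98.5 per Mb (91.0 to 106) on the long stretch, a ratio of 1.66 (1.33 to 2.06). In replicate 1 the short stretch had 31.5 peaks per Mb (19 peaks) and the long stretch 6.31 (41 peaks), a ratio of 4.99 (2.73 to 8.79). In replicate 2 the values were 228 and 146 per Mb, a ratio of 1.56 (1.30 to 1.87). The left arm exceeded the short stretch by 1.28 times in the series-wide list (1.04 to 1.59), while the intervals of that ratio reached below 1 in replicate 1 (0.809 to 2.23) and replicate 2 (0.995 to 1.43). The tip had 74.9 series-wide peaks per Mb (46.9 to 113), and its ratio to the long stretch, 0.761 (0.473 to 1.16), was within counting error. Peaks covered 7.16% of the left arm, 7.01% of the short stretch, 2.98% of the long stretch and 2.33% of the tip.

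**Figure D1:**
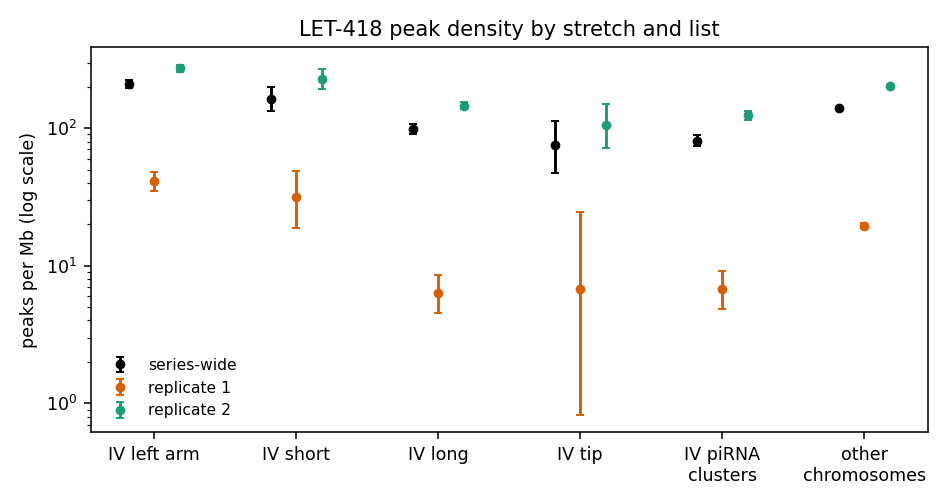
LET-418 peaks per Mb (log scale) on 4 stretches of chromosome IV outside the piRNA clusters, in the piRNA clusters and on the other chromosomes, for the series-wide list and both replicate lists; points are densities and bars 95% exact Poisson intervals. In the series-wide list the left arm is highest at 209.7 per Mb, followed by the short stretch at 164, and the long stretch and tip are lower at 98.5 and 74.9.

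The left arm was not evenly filled. Its first 500 kb held 49 series-wide peaks, the next 500 kb held 73, and the 3 pieces from 1 to 2.5 Mb held 144, 112 and 145. From 2.5 to 3 Mb there were 137 peaks and from 3 to 3.5 Mb there were 96. In replicate 1 the same 7 pieces held 3, 15, 32, 11, 39, 42 and 11 peaks, and in replicate 2 they held 76, 103, 166, 164, 158, 156 and 136. Peaks were thus fewest in the outermost piece in every list, and the crowded pieces of replicate 1, at 1 to 1.5 and 2 to 3 Mb, were also the most crowded in the series-wide list. The piece from 1.5 to 2 Mb was crowded in replicate 2 but had few peaks in replicate 1. On the long stretch the 13 pieces of 500 kb held 37 to 67 series-wide, 1 to 7 replicate 1 and 53 to 104 replicate 2 peaks.

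At a finer scale the arm and the remaining stretches overlapped. The 38 whole 100-kb bins of the left arm held 4 to 57 series-wide peaks with a median of 19.5, and the 73 bins of the remaining stretches held 1 to 29 with a median of 9. Of the 38 arm bins, 31 exceeded that median and 9 exceeded the fullest of the remaining bins. In replicate 1 the arm bins held 0 to 18 peaks (median 2, 6 bins empty) and the remaining bins 0 to 5 (median 0, 37 bins empty). In replicate 2 they held 8 to 57 (median 25) and 1 to 47 (median 15). The fullest arm bin was IV 2300001 to 2400000, with 57 series-wide, 17 replicate 1 and 57 replicate 2 peaks, and the emptiest was 500001 to 600000, with 4, 0 and 10. On the remaining stretches the fullest was 4000001 to 4100000 on the short stretch, with 29, 4 and 47. A pair of bins shared the lowest series-wide count of 1: 3900001 to 4000000, with 0 replicate 1 peaks and 1 replicate 2 peak, and 12900001 to 13000000, with 0 and 2. The arm thus ended beside a sparse piece: its last peak (3875287 to 3875810, score 21.48) and the first peak of the short stretch (3947553 to 3947729, score 6.07) had no series-wide peak between them.

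**Figure D2:**
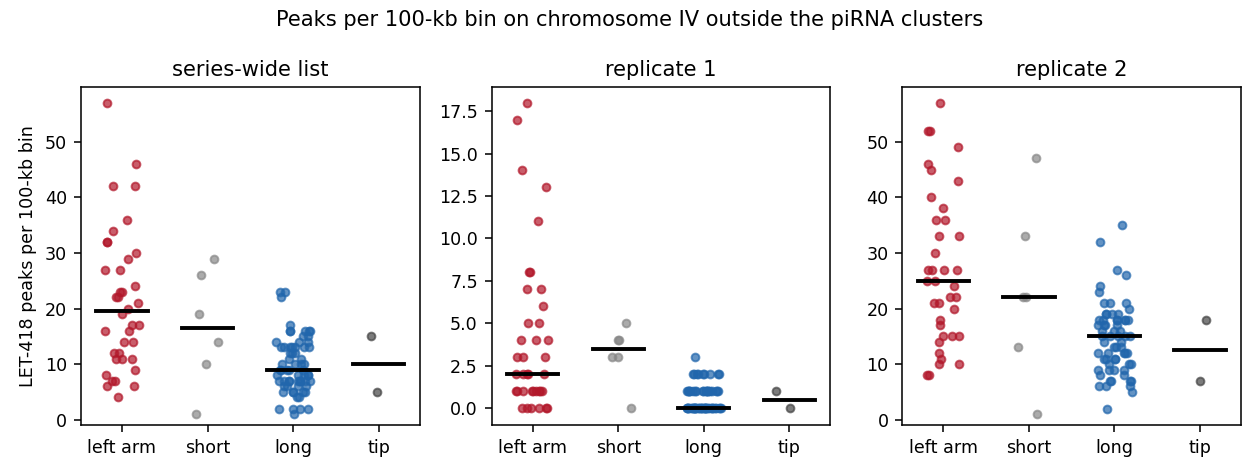
LET-418 peaks per whole 100-kb bin on the left arm (38 bins) and on the short, long and tip stretches of chromosome IV (73 bins in all), with 1 panel per list and its own axis; each point is a bin and the line is the median. The left arm reaches 57, 18 and 57 peaks in the series-wide, replicate 1 and replicate 2 lists, while many of its bins lie within the range of the remaining stretches.

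Neighbouring peaks were closer together on the left arm. The median distance between the midpoints of neighbouring series-wide peaks was 1436 bp on the left arm (quartiles 678 and 5156, 816 distances) and 2757 bp on the remaining stretches (895 and 10829, 758 distances). It was 3404 bp on the long stretch, 1412 bp on the short stretch and 1192.5 bp on the tip (21 distances). In this list only the long stretch was thus more widely spaced than the arm. Distances under 1 kb made up 39.3% on the left arm (Wilson interval 36.0 to 42.7) and 28.9% on the remaining stretches (25.8 to 32.2). The mean distance, taken as length over number of peaks, was larger than the median in both, at 4769 and 9721 bp. The longest distance without a series-wide peak was 72.7 kb on the left arm and 171.6 kb on the long stretch.

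The stretches differed most in replicate 1. There the median distance was 2567 bp on the left arm (159 distances) and 63033 bp on the remaining stretches (59 distances). None of the 40 distances on the long stretch was under 1 kb, which allows a share of up to 7.5% (3 counts of the total), against 44 of 159 on the arm and 7 of 18 on the short stretch. Every replicate 1 peak on the long stretch therefore stood alone at that scale, whereas part of those on the arm came in groups. In replicate 2 the medians were 1407 bp on the left arm and 1948 bp on the remaining stretches, and 39.8% (36.9 to 42.8) and 30.9% (28.2 to 33.6) of distances were under 1 kb.

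Runs in which each series-wide peak lay within 1 kb of the next held 483 of the 817 arm peaks, or 59.1%, and 354 of the 761 remaining peaks, or 46.5%. The arm had 20 runs of 5 or more peaks and the remaining stretches had 8. The longest run of the arm had 11 peaks over 5.52 kb, from IV 2661384 to 2666900. All 11 were overlapped in replicate 2 and 4 in replicate 1, and the highest series-wide score among them was 37.56. The longest run of the remaining stretches had 6 peaks over 2.98 kb, from 7506102 to 7509083, with 6 overlapped in replicate 2, 0 in replicate 1 and a highest score of 12.50. In the whole series-wide list 93.3% of peaks were overlapped in replicate 2 and 12.1% in replicate 1.

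**Figure D3:**
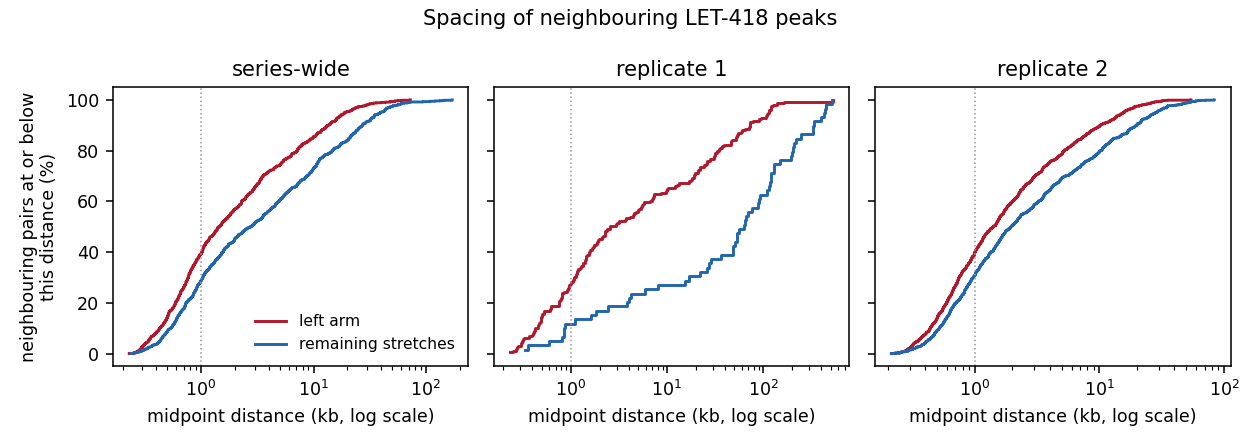
Cumulative share of neighbouring peak pairs by the distance between their midpoints (kb, log scale), for the left arm and the remaining stretches in each list; the dotted line marks 1 kb. The left arm curve lies above the other over most of the range, with medians of 1436 and 2757 bp (series-wide), 2567 and 63033 bp (replicate 1) and 1407 and 1948 bp (replicate 2).

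Peak width differed little between the arm and the remaining stretches. The median series-wide width was 245 bp on the left arm (quartiles 186 and 376) and 234 bp on the remaining stretches (184 and 357). In replicate 1 the medians were 207 and 208 bp, and in replicate 2 both were 242 bp. Peaks over 1 kb made up 2.87% of the whole series-wide list, 2.89% of the replicate 2 list and 1.27% of the replicate 1 list. On the left arm 32 series-wide peaks, or 3.92%, were that wide, and on the remaining stretches 22, or 2.89%, an odds ratio of 1.37 whose interval held 1 (0.763 to 2.50). Replicate 2 had 35 (3.31%) and 43 (3.85%), with an odds ratio of 0.855 (0.526 to 1.38). In replicate 1, 3 of 160 peaks on the arm and 0 of 62 on the remaining stretches were that wide, and 0 of 62 allows a share of up to 4.84% by the same rule of 3 counts. The short stretch had the largest median width, 294 bp, and 7 of its 99 series-wide peaks exceeded 1 kb against 15 of 640 on the long stretch (odds ratio 3.16, 1.06 to 8.51).

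The widest peak on the arm ran over 3393 bp from IV 2713164 to 2716556, with a series-wide score of 32.07. It overlapped peaks with scores of 8.53 in replicate 1 and 46.18 in replicate 2. Its neighbour from 2716814 to 2718910 (2097 bp, score 25.75) lay over the widest replicate 1 peak of the arm, 1474 bp, with a replicate 1 score of 7.25 and a replicate 2 score of 34.46. Another wide peak nearby ran from 2705135 to 2707211 (2077 bp) with scores of 34.49, 9.89 and 35.78. These 3 were close together, and the other of the 4 widest was at 1057602 to 1059961 (2360 bp), with scores of 27.43, 7.25 and 22.13.

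On the remaining stretches, 3 of the 4 widest peaks lay near the edge of the first piRNA cluster. They were IV 4404815 to 4406601 (1787 bp), 4467887 to 4469561 (1675 bp) and 4472412 to 4473935 (1524 bp), and the other was 12035287 to 12036755 (1469 bp). Their series-wide scores were 20.22, 8.72, 26.30 and 6.12. Replicate 2 called all 4, with scores of 73.92, 78.30, 44.79 and 17.50. Replicate 1 called the first with a score of 1.67 and the third with 4.83, and had no peak at the other 2. Of all series-wide peaks, 93.3% were overlapped in replicate 2 and 12.1% in replicate 1, so calls in replicate 2 do not set these peaks apart.

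Series-wide scores were higher on the left arm. The score is the authors' own, with 2 decimals and no named scale, and is compared here within 1 list. The median series-wide score was 8.67 on the left arm (quartiles 5.30 and 15.0) and 7.16 on the remaining stretches (4.39 and 12.03), so the interquartile ranges overlapped widely. By stretch the median was 8.14 on the short stretch, 6.86 on the long stretch and 8.99 on the tip (22 peaks), so the tip was not below the arm. The highest score decile, which began at 21.5 and by definition holds 10.0% of the list, took 108 of the 817 arm peaks, or 13.2% (Wilson 11.1 to 15.7). It took 42 of the 761 remaining peaks, or 5.52% (4.11 to 7.38), an odds ratio of 2.61 (1.78 to 3.88). The short stretch was again like the arm, with 13 of 99 (13.1%) in that decile against 29 of 640 (4.53%) on the long stretch and 0 of 22 on the tip.

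The higher share of highest-decile peaks on the arm was not seen in the replicate lists, although their median scores were also slightly higher there. In replicate 2 the highest decile, which held 10.1% of the list with ties, took 99 arm peaks (9.35%) and 105 remaining peaks (9.39%), an odds ratio of 0.995 (0.737 to 1.34). The median replicate 2 scores were 9.57 and 9.29. In replicate 1, where the decile held 11.0% with ties, it took 9 of 160 arm peaks (5.63%) and 6 of 62 remaining peaks (9.68%), an odds ratio of 0.558 (0.168 to 2.00). The median replicate 1 scores were 5.28 and 4.78. The higher share of strong peaks on the arm was therefore seen in the series-wide list and in neither replicate list alone. How the series-wide list was made is not given in the sources used here.

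**Figure D4:**
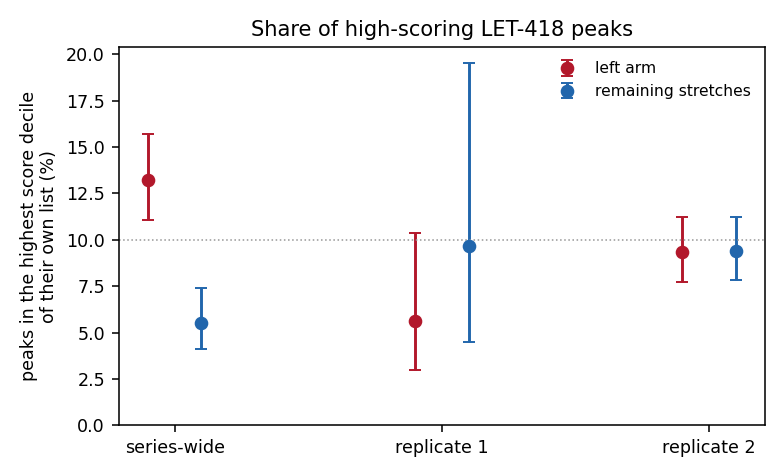
Share of LET-418 peaks that fall in the highest score decile of their own list (%), for the left arm and the remaining stretches; points are shares, bars 95% Wilson intervals, and the dotted line is 10%. The arm exceeds the remaining stretches in the series-wide list (13.2 against 5.52%) and not in replicate 1 (5.63 against 9.68%) or replicate 2 (9.35 against 9.39%).

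The 8 highest-scoring arm peaks were all called in both replicates. Most peaks with such scores were: in the highest decile, 75.4% of peaks on the other chromosomes were overlapped in replicate 1 and 99.8% in replicate 2. The highest was IV 1624384 to 1624925 (542 bp), with a score of 53.34 in the series-wide list, 17.23 in replicate 1 and 96.10 in replicate 2. Next came 3350331 to 3350987 with 52.56, 15.78 and 119.82, and 3313350 to 3313711 with 50.87, 16.51 and 125.06. By score these 3 lay at or above the 97.4th percentile of the replicate 1 list and the 99.3rd of the replicate 2 list. A pair of sites tied at 50.27: 1413265 to 1414360, with 8.69 in replicate 1 and 90.30 in replicate 2, and 2604100 to 2605062, with 10.75 and 100.94. The latter stood beside the next, 2606444 to 2606954 (46.49, 10.45 and 75.76). The last were 884781 to 885050 (45.85, 8.25 and 124.12) and 1233714 to 1234866 (44.56, 12.76 and 72.52). The site at 884781 thus had the second highest replicate 2 score of the 8 but the lowest replicate 1 score, at the 78.9th percentile of that list.

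Most of these arm sites had another peak close by. The nearest neighbour, by midpoint, was 516 to 1336 bp away for the first 6 of them, 2894 bp for the site at 884781 and 5602 bp for that at 1233714. The neighbours at 3351032 to 3351708 (series-wide 21.95), 1412161 to 1412791 (29.73), 2602709 to 2604058 (32.66), 2605539 to 2606394 (36.31) and 1239764 to 1240020 (22.68) were themselves called in both replicates. All of these scored in the highest decile, where 75.4% of peaks on the other chromosomes were overlapped in replicate 1 and 99.8% in replicate 2. The other 3, at 1624051, 3314144 and 881923, had scores of 7.20, 6.55 and 10.24 and were called in replicate 2 but not in replicate 1. In the deciles of those scores the shares on the other chromosomes were 1.54 and 5.24% in replicate 1 and 92.3 and 96.4% in replicate 2. The 4 series-wide peaks between 2602709 and 2606954 thus formed a block of strong sites. Each was called in both replicates, as most peaks of the highest decile were.

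On the remaining stretches the 8 highest-scoring peaks were likewise called in both replicates, and 3 of them lay on the short stretch. The highest was IV 12831647 to 12831944 (298 bp), with 52.06 in the series-wide list, 17.23 in replicate 1 and 119.38 in replicate 2. It was followed by 9196214 to 9197468 (1255 bp) with 51.33, 13.32 and 160.79, the highest replicate 2 score on these stretches. The next were 12684880 to 12685149 (47.80, 15.04 and 99.16) and 9778068 to 9778336 (44.56, 13.52 and 95.48). The peak at 13430206 to 13430560 (44.15) had a replicate 1 score of 4.73, below that list's median of 5.32, and a replicate 2 score of 131.76. The sites on the short stretch were 4213892 to 4215018 (42.23, 12.51 and 50.41), 4390520 to 4390778 (41.82, 9.50 and 117.85) and 4184783 to 4185049 (40.08, 15.78 and 102.57).

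These sites stood more alone than those of the arm. The nearest neighbours of the 5 on the long stretch were 453, 1475, 2324, 21328 and 17329 bp away, in the order above, and had series-wide scores of 9.98, 5.23, 4.39, 2.92 and 6.0. None of these 5 neighbours was called in replicate 1. Few peaks with such scores were: in score deciles 1 to 7, 0.0847 to 5.24% of peaks on the other chromosomes were overlapped there. The neighbours of the 3 short-stretch sites were 1220, 894 and 4763 bp away, with scores of 17.46, 2.43 and 8.14, and the first of them was called in replicate 1, with a score of 1.48.

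Recovery in replicate 1 was higher on the arm. A series-wide peak counted as recovered where a replicate peak overlapped it by at least 1 bp. In the whole list 12.1% were recovered in replicate 1. On the left arm 136 of 817 were, or 16.6% (Wilson 14.2 to 19.4), and on the remaining stretches 59 of 761, or 7.75% (6.06 to 9.87), an odds ratio of 2.37 (1.70 to 3.34). All 222 replicate 1 peaks on these stretches overlapped a series-wide peak. This odds ratio therefore largely restates the densities of both lists. The short stretch had 16 of 99 (16.2%), the long stretch 41 of 640 (6.41%) and the tip 2 of 22 (9.09%). Part of the difference went with score: matched by series-wide score decile, the odds ratio was 1.64 (1.08 to 2.50). In the highest decile 84 of 108 arm peaks (77.8%) and 28 of 42 remaining peaks (66.7%) were recovered, and in the ninth decile 32 of 85 and 18 of 72. Below the list's median score, 2 of 340 arm peaks and 1 of 402 remaining peaks were recovered. On the other chromosomes 75.4% were recovered in the highest decile, 25.4% in the ninth and 0.578% below the median.

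Recovery in replicate 2 went the other way. In the whole list 93.3% were recovered there. On the left arm 721 of 817 were, or 88.2% (85.9 to 90.3), and on the remaining stretches 725 of 761, or 95.3% (93.5 to 96.6), an odds ratio of 0.373 (0.244 to 0.561). The short stretch had 96 of 99 (97.0%), the long stretch 607 of 640 (94.8%) and the tip 22 of 22. In this measure the short stretch was unlike the arm (odds ratio of the arm to it 0.235, 0.0467 to 0.731). Matching by score did not bring the stretches closer, with an odds ratio of 0.280 (0.185 to 0.424). The arm was lower on both sides of the list's median score. Below it, 269 of 340 arm peaks (79.1%, 74.5 to 83.1) and 368 of 402 remaining peaks (91.5%, 88.4 to 93.9) were recovered. At or above the median the shares were 94.8% (452 of 477) and 99.4% (357 of 359), an odds ratio of 0.101 with a wide interval (0.0116 to 0.411), since 2 remaining peaks were missed there. The shares on the other chromosomes lay between those of the arm and the remaining stretches, at 89.2% below the median and 97.6% at or above it.

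**Figure D5:**
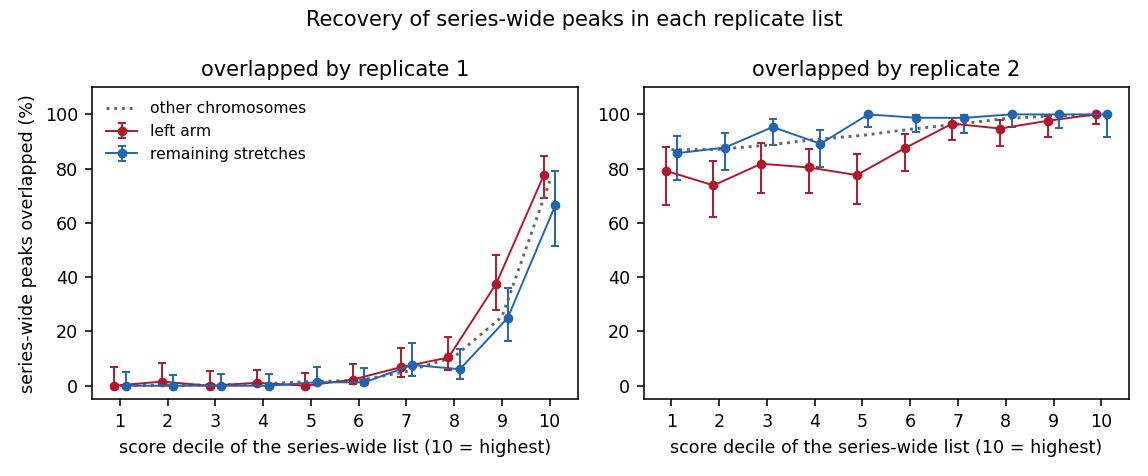
Share of series-wide peaks overlapped by at least 1 bp of a replicate 1 peak (left panel) or a replicate 2 peak (right panel), by score decile of the series-wide list, with 95% Wilson bars for the left arm and the remaining stretches and a dotted line for the other chromosomes. In replicate 1 recovery is near 0 up to the fifth decile and reaches 77.8 and 66.7% in the highest; in replicate 2 the arm lies below the remaining stretches from the first to the ninth decile and both are at 100% in the highest.

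Peaks found in neither replicate list were more frequent on the arm than on the remaining stretches. They make up 6.57% of the whole series-wide list. The arm had 95, or 11.6% (9.61 to 14.0), and the remaining stretches 36, or 4.73% (3.44 to 6.48), an odds ratio of 2.65 (1.76 to 4.06). Replicate 2 missed 96 peaks on the arm and the same 36 on the remaining stretches. This odds ratio therefore restates the recovery in replicate 2 and is not a separate result. The peaks in neither list were weak and narrow: on the arm their median score was 5.83 and their median width 179 bp, against 9.65 and 263 bp for the arm peaks found in a replicate. On the remaining stretches the medians were 3.86 and 174 bp, against 7.50 and 239 bp. On the arm 24 of the 95 nevertheless had a score at or above the list's median of 7.57, and on the remaining stretches 2 of 36 did. Within 1 kb of a replicate 2 peak lay 67 of the 95 on the arm (70.5%) and 20 of the 36 on the remaining stretches (55.6%). The density of replicate 2 peaks differed 1.80 times between these stretches. The share of other positions that lie so close was not computed, so these shares cannot be read as a trait of these peaks.

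The 3 with the highest scores on the arm were IV 2766967 to 2767161 (17.88), 1923475 to 1923707 (16.42) and 1218930 to 1219145 (14.55), which stood 104, 104 and 2041 bp from the nearest replicate 2 peak. On the remaining stretches they were 4318144 to 4318513 (10.64), 4397725 to 4397908 (9.06) and 12692846 to 12693079 (6.06), at 311, 370 and 4586 bp. The first 2 of these were on the short stretch.

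In the other direction, all 222 replicate 1 peaks on these stretches overlapped a series-wide peak, where 99.8% of the whole replicate 1 list did. All but 1 of them also overlapped a replicate 2 peak, where 99.0% of the whole list did. The exception, IV 855242 to 855387 (146 bp), had a replicate 1 score of 2.27, stood 377 bp from the nearest replicate 2 peak, and lay in a series-wide peak with a score of 9.06. Of the replicate 2 peaks, 722 of 1059 on the arm (68.2%) and 679 of 1118 on the remaining stretches (60.7%) overlapped a series-wide peak, where 63.3% of the whole list did (odds ratio 1.38, 1.16 to 1.66). Replicate 1 overlapped 138 of the 1059 (13.0%) and 59 of the 1118 (5.28%), where 8.65% of the whole list did (odds ratio 2.69, 1.94 to 3.76). Since nearly all replicate 1 peaks overlapped a replicate 2 peak, this odds ratio largely restates the densities of both replicate lists. At a matched replicate 2 score decile this odds ratio was 3.31 (2.33 to 4.70), so replicate 1 called arm sites more often than sites of the remaining stretches with a like replicate 2 score.

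Scores of overlapping peaks kept part of their order between lists. Across 159 arm peaks of replicate 1 and the replicate 2 peaks over them, Spearman's rho was 0.47, and across 62 on the remaining stretches it was 0.26. Between the series-wide list and replicate 2 it was 0.69 on the arm (721 peaks) and 0.74 on the remaining stretches (725). Between the series-wide list and replicate 1 it was 0.85 (136 peaks) and 0.65 (59). These are descriptions across peaks of the same libraries, and some peaks share an overlapping partner.

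Set against the rest of the genome, the arm and the remaining stretches lay on opposite sides. The other chromosomes had 140 series-wide peaks per Mb, so the arm was 1.50 times as dense (1.39 to 1.61) and the remaining stretches 0.734 times (0.681 to 0.789). Over all these stretches of IV there were 139.7 peaks per Mb, a ratio to the other chromosomes of 0.996 (0.945 to 1.05). The share recovered in replicate 2 on the arm was below that of the other chromosomes, 93.4% (odds ratio 0.527, 0.420 to 0.667; 0.441, 0.349 to 0.558, at matched score decile). The share recovered in replicate 1 on the arm, 16.6%, exceeded that of the other chromosomes, 12.3% (odds ratio 1.43, 1.17 to 1.73), but not beyond counting error at a matched score decile (1.29, 0.987 to 1.69).

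The remaining stretches were somewhat denser than the piRNA clusters they border, and the short stretch clearly so. The clusters had 81.3 series-wide peaks per Mb (74.3 to 88.7), and the remaining stretches 1.27 times as many (1.13 to 1.42). In replicate 1 the ratio was 1.24 (0.823 to 1.88) and in replicate 2 it was 1.22 (1.11 to 1.34). The short stretch was 2.02 times as dense as the clusters in the series-wide list (1.61 to 2.51), 4.64 times in replicate 1 (2.55 to 8.16) and 1.84 times in replicate 2 (1.53 to 2.21). The long stretch was 1.21 times as dense in the series-wide list (1.08 to 1.36), and the ratio of the tip to the clusters, 0.921, was within counting error (0.572 to 1.41). Recovery did not differ beyond counting error. In replicate 1 it was 7.94% in the clusters against 7.75% (odds ratio of the remaining stretches to the clusters 0.975, 0.630 to 1.52). In replicate 2 it was 95.8% against 95.3% (0.876, 0.479 to 1.56). The arm was 2.58 times as dense as the clusters (2.31 to 2.89) in the series-wide list and 6.06 times (4.29 to 8.73) in replicate 1.

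Among the 12 chromosome ends, each taken over the same length as the arm, the left end of IV was not extreme in density. Its 817 series-wide peaks were exceeded by the left end of III with 1166 and the right end of I with 866 alone, and the ends ranged down to 305 at the right end of IV, which holds most of the second piRNA cluster. It ranked 5 of 12 in replicate 1, with 160 peaks against 387 at the left end of III, and 5 of 12 in replicate 2. Its recovery in replicate 2, 88.2%, was the second lowest after the right end of V at 86.9%, and the ends ranged up to 97.1%. Its share of highest-decile peaks ranked 4 of 12, at 13.2%, below the left ends of III and II and the right end of V, which had 23.8 to 25.4%.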

How the data were processed

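The data were 3 peak lists: 1 per ChIP replicate and 1 series-wide list. Peaks were called with MACS on WormBase WS220, per the file headers, and BWA and ce10 are named in the submitters' processing notes. Versions, threshold and use of the input samples were not given in the sources used here. The authors deposited a start, an end (bp) and a score with no named scale for each peak. No peak was filtered out. No read counts are in the lists, so depth is unknown.

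Stretches were assigned by peak midpoint. The furthest peak end found on IV, 17493793, stood for the chromosome's end. Overlap meant at least 1 bp. Densities carry 95% exact Poisson intervals, shares Wilson intervals (a share of 0 is limited by 3 counts of the total), density ratios exact conditional binomial intervals, and odds ratios exact conditional intervals or, over 10 score deciles, Mantel-Haenszel intervals. Where several replicate peaks overlapped a peak, the highest score was given. Regions were named by rule: the 8 highest-scoring and 4 widest peaks of the arm and of the remaining stretches, the nearest neighbours of the former, extreme 100-kb bins, replicate 1 peaks absent from replicate 2, and the 3 highest-scoring peaks found in neither replicate. Stretches, rules and alternatives were chosen with earlier results of these data known. The procedures were tested on simulated data. Gene models and sequence on WS220 were not used here. Python 3.11.15, NumPy 2.4.6, pandas 2.3.3, SciPy 1.17.1, statsmodels 0.14.6 and Matplotlib 3.10.9 were used.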

Additional observations from a re-analysis of the deposited data

How the results depend on the processing

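No paired analysis was possible because neither input sample has values of its own here that could be matched to the ChIP sample of its number. Of 41 alternatives, 26 left a result within its interval and 13 moved it beyond. For score, width and distance the intervals were those of each stretch's own median, since their difference had none. The other 2 took an odds ratio that had exceeded counting error below 1, with intervals that held 1. The density ratio of 2.04 lay between 1.80 and 4.90 with either replicate list alone. It was 2.52 for scores at or above the median and 4.34 for peaks in both replicates. With lists of equal length, an alternative chosen after seeing the data, it was 1.82 for replicate 2 and 3.94 for the series-wide list. Ending the arm at 4500000, leaving out its first 500 kb or comparing only the long stretch gave 2.09 to 2.20. The odds ratio for the highest score decile, 2.61, was 0.558 (0.168 to 2.00) with replicate 1 alone and 0.995 (0.737 to 1.34) with replicate 2 alone. The higher share was thus not seen there and not reversed beyond counting error, and the cause was not tested. The odds ratio for recovery in replicate 1, 2.37, was 1.64 at a matched score decile. That for replicate 2, 0.373, was 0.101 for scores at or above the median, where 2 remaining peaks were missed. The difference in median width, 11 bp, was within counting error, changed sign to -1 bp with replicate 1 alone, was 0 bp with replicate 2 alone and was 25 bp at or above the median score. The difference in median distance, -1321 bp, ranged from -60466 to -541 bp with either replicate list and was -6953 bp at or above the median score. The left arm kept the shorter distance in these lists. Depth is unknown, so how much of the difference between the replicates comes from it was not tested.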

Other observations

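Some replicate 2 peaks covered more than 1 series-wide peak. On the left arm 24 replicate 2 peaks covered 2 to 4 series-wide peaks each, 53 in all, of 721 that were recovered. On the remaining stretches 45 replicate 2 peaks covered 2 to 4 each, 99 in all, of 725. Scores also had few distinct values for their number, with 1847 among the 13690 series-wide peaks and 328 among the 1887 replicate 1 peaks, so ties are common. Series-wide score and width had a Spearman's rho of 0.54 across the 817 arm peaks and 0.42 across the 761 remaining peaks, as a description across peaks that share the same libraries.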
